A study of Mus musculus with 5 samples.

Results

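The kinase cascade around the oncogenic Braf allele is described here through 7 genes, taken by symbol from the deposited gene table: the RAS genes Hras and Nras, the RAF genes Braf and Araf, the MEK genes Map2k1 and Map2k2, and the ERK gene Mapk3. All 7 were found among the 16413 listed genes, 1 row each, and all 7 passed the filter on low counts that left 15765. The libraries came from total RNA of whole mouse thyroid glands. Mice on the high fat diet gave 3 libraries (replicates 2, 9 and 10) and mice on chow gave 2 (replicates 2 and 8). Every animal was LSL-BrafV600E;TgCreERT2 and had received tamoxifen for 1 week from 8 weeks of age; the diets ran for 12 weeks, to an age of 22 weeks. The Cre is driven by the thyroglobulin promoter, so recombination is directed to follicular cells, while the counts came from the whole gland and do not separate the mutant from the normal Braf transcript. All groups carried the mutation, and the comparison was therefore between diets in mutant thyroids. The labels number the samples without saying that each is a separate animal, so the tests measure the spread between these samples, which may be technical.

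RAS proteins are small GTPases at the inner face of the plasma membrane that are switched on by growth factor receptors and recruit RAF kinases. RAF phosphorylates the MEK kinases, MEK phosphorylates ERK, and ERK phosphorylates transcription factors and other kinases in the nucleus and cytoplasm. The mutant BRAF kinase is active without RAS, and this cascade is the one most often mutated in papillary thyroid cancer. Its activity is set mainly by phosphorylation of the proteins, which RNA levels do not measure.

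Total counts per library ran from 43494747 to 52663677. All 10 follicular markers (Tg, Pax8 and Slc5a5 among them) were listed, and their summed level was 104300 to 175700 CPM (read counts scaled to a common depth with TMM library factors) on the high fat diet and 190400 to 238100 CPM on chow. High fat diet replicate 10 stood apart: it had the lowest follicular sum, 10.9% of its counts in Tg, and 6417 CPM over the 10 airway and mucous gland markers, against 697.6 to 1341 CPM in the other 4 libraries. In bulk tissue, fewer cells of a type and less RNA per cell cannot be told apart. For many values below, the result without this library is given as well.

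Promoter sequences are shown for 3 genes that moved apart in high fat diet replicate 10: Hras and Map2k2 had their highest CPM there, and Braf its lowest. They come from RefSeq (GRCm38.p6, the assembly behind mm10), cover 250 bases before to 50 after the annotated start site, and run 5′ to 3′ on the gene's own strand. RefSeq promoters were matched for 6 of the 7 genes, and Mapk3 was not matched. Capitals mark matches on either strand to the GC box GGGCGG, the CCAAT box CCAAT, the cyclic AMP response element TGACGTCA and the ETS site CGGAAG. None of the marked matches overlap. The Braf window lies on the minus strand at chr6:39725414-39725713, the Hras window on the minus strand at chr7:141193955-141194254 and the Map2k2 window on the plus strand at chr10:81105665-81105964.
Braf: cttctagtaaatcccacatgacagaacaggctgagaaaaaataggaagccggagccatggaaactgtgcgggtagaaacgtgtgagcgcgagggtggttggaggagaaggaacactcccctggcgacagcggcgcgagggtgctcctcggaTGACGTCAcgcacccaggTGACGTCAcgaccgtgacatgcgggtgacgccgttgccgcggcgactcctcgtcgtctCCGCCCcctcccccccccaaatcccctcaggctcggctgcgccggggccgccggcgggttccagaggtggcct
Hras: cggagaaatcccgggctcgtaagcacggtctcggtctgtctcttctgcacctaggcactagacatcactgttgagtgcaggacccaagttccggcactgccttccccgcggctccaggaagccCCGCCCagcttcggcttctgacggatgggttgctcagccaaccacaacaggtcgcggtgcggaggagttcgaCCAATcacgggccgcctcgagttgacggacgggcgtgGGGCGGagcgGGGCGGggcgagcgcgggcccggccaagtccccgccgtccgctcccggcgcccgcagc
Map2k2: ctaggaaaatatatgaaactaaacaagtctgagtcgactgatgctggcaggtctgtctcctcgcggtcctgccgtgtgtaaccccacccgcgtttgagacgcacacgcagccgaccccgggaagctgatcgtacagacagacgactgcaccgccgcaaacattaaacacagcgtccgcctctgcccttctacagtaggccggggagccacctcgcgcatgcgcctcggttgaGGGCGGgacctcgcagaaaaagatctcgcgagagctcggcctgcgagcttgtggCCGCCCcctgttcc
The Braf window held 2 cyclic AMP response elements, beginning at -99 and -81 from the start site, and 1 GC box at -23. Cyclic AMP is the second messenger of thyrotropin in follicular cells. This motif occurred in 1.79% of the 32851 promoters in the table and in none of the other 5 matched genes of the cascade. The Hras window held 3 GC boxes, at -127, -18 and -8, and a CCAAT box at -55. The Map2k2 window held 2 GC boxes, at -18 and 37. GC boxes were present in 35.7% of all promoters, and among the cascade genes in 5 of the 6, with Araf the exception; Araf held 3 CCAAT boxes, a motif of 37.4% of promoters. The letters CGGAAG, a form of the site of the ETS family of factors, were found in 16.9% of all promoters and in 0 of these 6. Shorter or other forms of the ETS site were not searched. These are matches of letters in a fixed window and say nothing of binding.

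On the deposited FPKM scale (fragments per kilobase of gene model, scaled to sequencing depth), the mean over the 5 libraries was 45.9 ± 8.61 for Mapk3, 31.2 ± 2.68 for Map2k1, 23.2 ± 1.74 for Araf, 19.1 ± 1.81 for Nras, 17.1 ± 2.80 for Map2k2, 16.4 ± 1.15 for Braf and 10.6 ± 1.21 for Hras (SD, n = 5 each). Mapk3 was thus the most abundant of the 7 and Hras the least, in each of the 5 libraries. Nras, Map2k2 and Braf followed each other within their spread and are not ordered. The order is that of the deposited scale, and the place of Araf against Braf depended on the gene length used. The 7 genes lay between the 64.4th percentile (Hras) and the 93.2nd percentile (Mapk3) of mean FPKM over the listed genes.

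**Figure D1:**
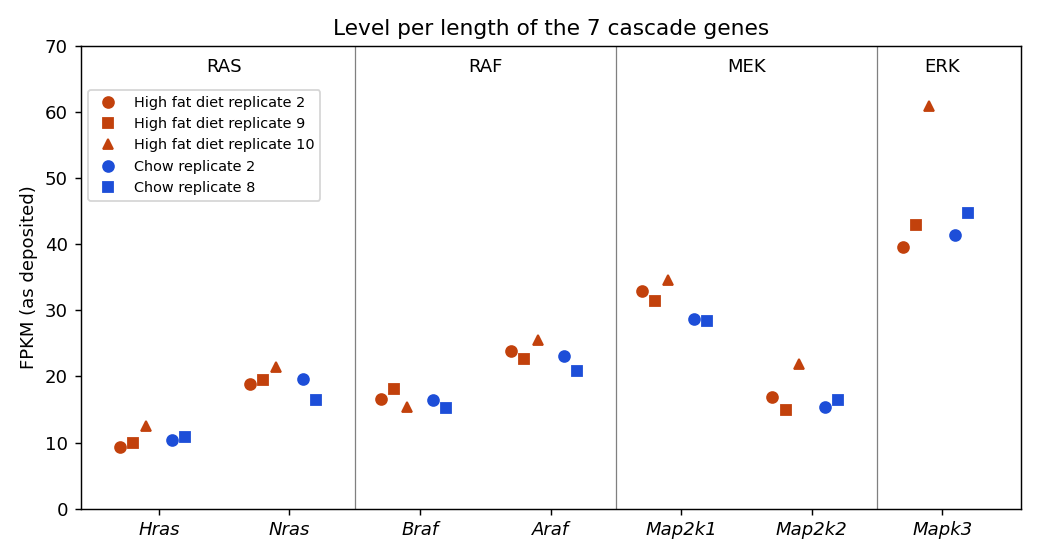
Deposited FPKM of the RAS, RAF, MEK and ERK genes in each library, with high fat diet libraries in orange and chow libraries in blue. Vertical lines part the tiers of the cascade; Mapk3 in high fat diet replicate 10 (60.9) stands above its other libraries (39.6 to 44.7).

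No gene of the cascade passed the test between the diets, and every 95% interval included 0. By edgeR's quasi-likelihood test, Benjamini-Hochberg adjusted over all 15765 genes, 0 of the 7 passed an adjusted p of 0.05 in either direction, where 0% of all tested genes passed. At an unadjusted p under 0.05 it was also 0 of the 7, against 5.42% of all genes, 2.95% higher and 2.47% lower. DESeq2 called 0 of the 7 as well, against 0.59% of all genes, and so did limma-voom, with 0% of all genes. The median log2 fold change of the 7 (high fat diet over chow) was 0.062, against 0.012 over all tested genes, with 5 of the 7 above 0 and 52.7% of all genes above 0. Without high fat diet replicate 10 the median of the 7 was 0.038, with 4 above 0 and 3 below. The 95% intervals of the 7 lay between -0.42 and 0.43 on the log2 scale, that is between folds of 0.746 and 1.35, so a doubling or a halving lay outside each of them.

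The upstream RAS genes come first. Hras, a RAS protein that cycles between the plasma membrane and the Golgi, had 20.0, 20.5 and 24.9 CPM in high fat diet replicates 2, 9 and 10, against 22.3 and 24.5 CPM in chow replicates 2 and 8. The groups overlapped, since replicate 10 was the highest of all 5 libraries and the other 2 high fat diet libraries were the lowest. The mean was 21.8 ± 2.70 CPM on the high fat diet (SD, n = 3) and 23.4 ± 1.58 CPM on chow (SD, n = 2), a log2 fold change of -0.10 ± 0.14 (SE) (edgeR adjusted p = 0.996). Without high fat diet replicate 10 it was -0.21 and the groups did not overlap, and without chow replicate 8 it was -0.028. Nras, the RAS gene first found in neuroblastoma and a recurrent mutation site in follicular thyroid tumours, had 87.4, 87.0 and 91.6 CPM in the high fat diet libraries, against 90.2 and 79.6 CPM in the chow libraries. Of the 3 high fat diet values 2 lay between the chow values and 1 just above them, and chow replicate 8 was the lowest. Its log2 fold change was 0.062 with an interval from -0.18 to 0.30 (edgeR adjusted p = 0.996); it was 0.038 without high fat diet replicate 10 and -0.022 without chow replicate 8.

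The RAF tier holds the mutated gene itself. Braf had 167, 177 and 143 CPM in high fat diet replicates 2, 9 and 10, against 165 and 162 CPM in chow replicates 2 and 8. The high fat diet libraries lay on both sides of the chow pair, and replicate 10 was the lowest of all. Braf averaged 162 ± 17.2 CPM on the high fat diet (SD, n = 3) and 163 ± 2.69 CPM on chow (SD, n = 2), on counts of 6637 to 8882 per library, and its fold of 0.994 had a 95% interval from 0.825 to 1.20 (edgeR adjusted p = 0.996). The sign of this near-zero log2 fold change, -0.0092, depended on single libraries: it was 0.073 without high fat diet replicate 10 and 0.0025 without chow replicate 2. Araf, the X-linked RAF kinase with the weakest kinase activity of the family, was among the steadiest genes measured, with 48.3, 45.7 and 49.3 CPM in the high fat diet libraries, against 45.7 and 44.2 CPM in the chow libraries. Each high fat diet value lay above both chow values, by 0.036 CPM at the closest. The standard deviation of its log2 CPM over the 5 libraries was 0.064, at the 5.06th percentile of all tested genes, whose median was 0.18. The log2 fold change of Araf was 0.088 ± 0.10 (SE) (edgeR adjusted p = 0.996).

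Both MEK genes, the dual-specificity kinases that pass the signal from RAF to ERK, were measured. Map2k1, which encodes MEK1, had 81.6, 75.0 and 79.1 CPM in high fat diet replicates 2, 9 and 10, against 70.6 and 73.7 CPM in chow replicates 2 and 8. All 3 high fat diet libraries lay above both chow libraries, by 1.3 CPM at the closest. Map2k1 averaged 78.5 ± 3.33 CPM on the high fat diet (SD, n = 3) and 72.1 ± 2.17 CPM on chow (SD, n = 2). Its log2 fold change of 0.12 ± 0.10 (SE), with an interval from -0.11 to 0.35, was the largest of the 7 and did not pass (edgeR adjusted p = 0.986). Leaving out 1 library moved it between 0.087 and 0.16. The authors' deposited table lists Map2k1 with a fold of -1.07, where a negative value means lower on chow. The authors' own test gave it an unadjusted p of 0.0466, the smallest of the 7, and an adjusted p of 0.971. Map2k2, which encodes MEK2, had 42.0, 35.9 and 50.4 CPM in the high fat diet libraries, against 38.1 and 42.8 CPM in the chow libraries. The high fat diet group held both the lowest value, in replicate 9, and the highest, in replicate 10. Its log2 fold change was 0.082 ± 0.15 (SE) (edgeR adjusted p = 0.996), -0.052 without high fat diet replicate 10 and -0.0047 without chow replicate 2.

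Mapk3, which encodes ERK1, the last kinase of the cascade, had 72.9, 76.3 and 103 CPM in high fat diet replicates 2, 9 and 10, against 75.5 and 85.9 CPM in chow replicates 2 and 8. Replicate 10 lay above every other library, while replicate 2 lay below both chow libraries and replicate 9 between them. Its highest CPM was 1.42 times its lowest, the widest span of the 7, next to 1.40 for Map2k2. The log2 fold change was 0.060 ± 0.16 (SE) (edgeR adjusted p = 0.996), and it changed sign to -0.11 without high fat diet replicate 10 and to -0.035 without chow replicate 2.

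**Figure D2:**
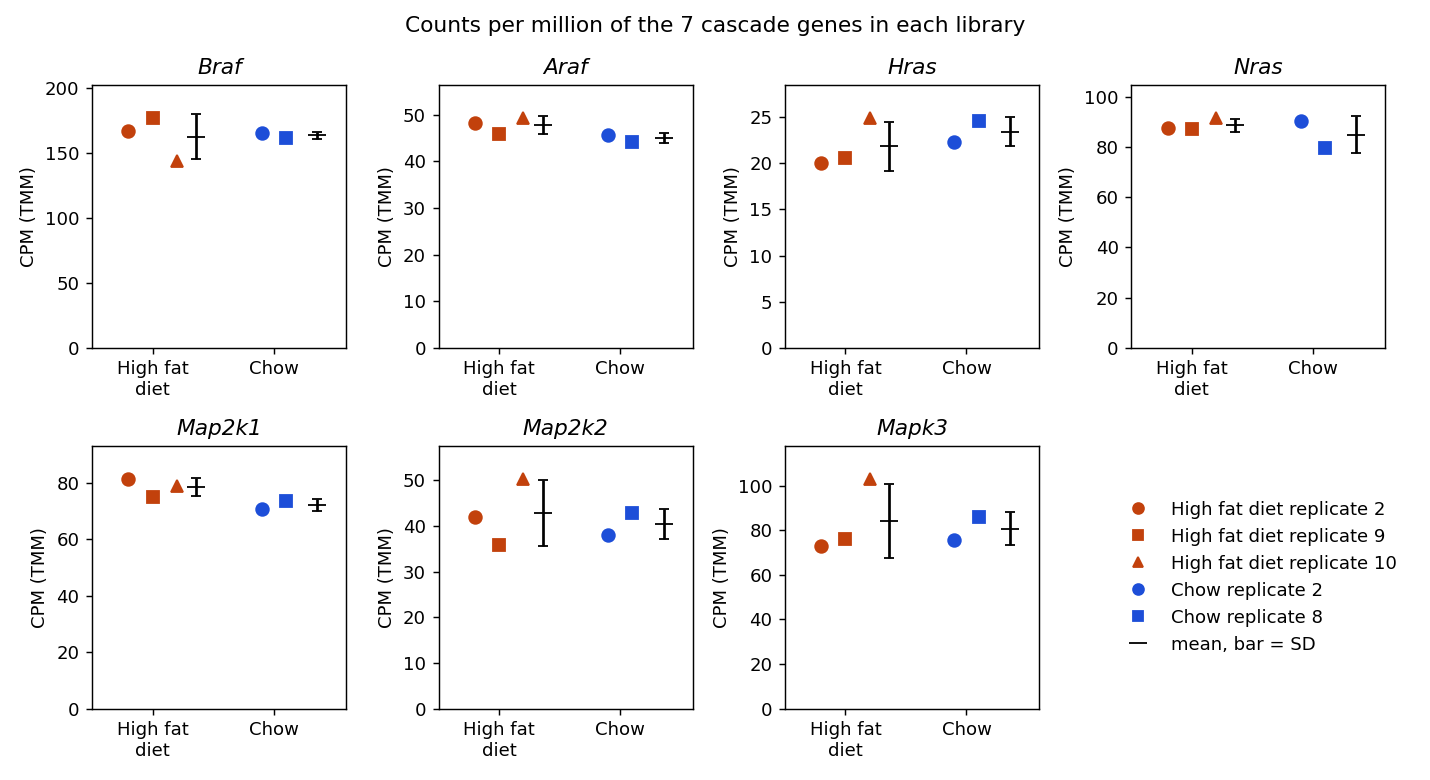
TMM-scaled CPM of each of the 7 genes in the 3 high fat diet and 2 chow libraries, with the group mean and its SD; each axis starts at 0. Araf and Map2k1 are the 2 genes whose high fat diet points all lie above the chow points, and Mapk3 and Map2k2 have their highest point in high fat diet replicate 10.

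Counting the genes whose diet groups did not overlap gave 2 of the 7 with every high fat diet library above both chow libraries, Araf and Map2k1, where 10.6% of all tested genes did so, and 0 of the 7 with every one below, where 10.3% did. With upper-quartile factors the count was 1, Map2k1, against 10.8% of all genes above and 10.2% below. Without high fat diet replicate 10 it was 4: Braf, Araf and Map2k1 above and Hras below, against 17.7% and 16.9% of all genes in that smaller comparison.

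**Figure D3:**
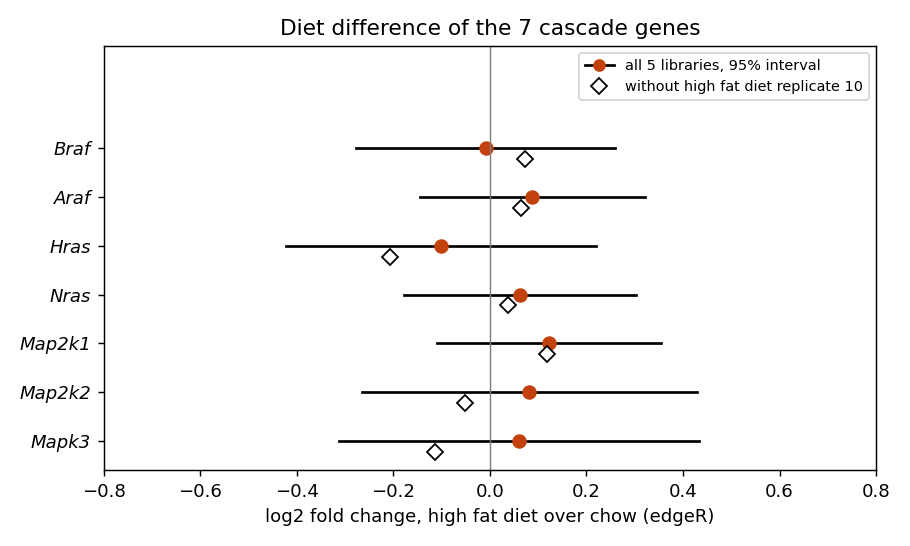
Log2 fold change of high fat diet over chow for each gene (circles) with its 95% interval from edgeR, and the value without high fat diet replicate 10 (diamonds). Every interval spans 0, and Braf, Map2k2 and Mapk3 change sign when that library is left out.

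High fat diet replicate 10 held the highest CPM of 5 of the 7 genes, where it held the highest of 29.7% of all genes, and the lowest of Braf. Relative to the mean of the other 4 libraries it stood at 1.33 for Mapk3, 1.27 for Map2k2, 1.14 for Hras, 1.07 for Araf, 1.06 for Nras, 1.05 for Map2k1 and 0.855 for Braf. The GC content of the longest listed transcript was 57.6% for Mapk3, 60.4% for Map2k2, 55.2% for Hras, 55.0% for Araf, 51.2% for Map2k1 and 42.6% for both Nras and Braf. Over all 15546 tested genes with a transcript, the same ratio for this library had a median of 0.894 in the quintile of lowest GC content, 0.994 in the middle quintile and 1.17 in the quintile of highest GC content. In the other 4 libraries the medians of these quintiles ran from 0.927 to 1.04. Of the 7 genes, Nras was the one that lay outside the middle 50% of its own quintile, 0.81 to 0.997, and Mapk3 lay at the upper edge of its own. The part of GC content or of the mucous gland markers in the values of this library was not tested.

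**Figure D4:**
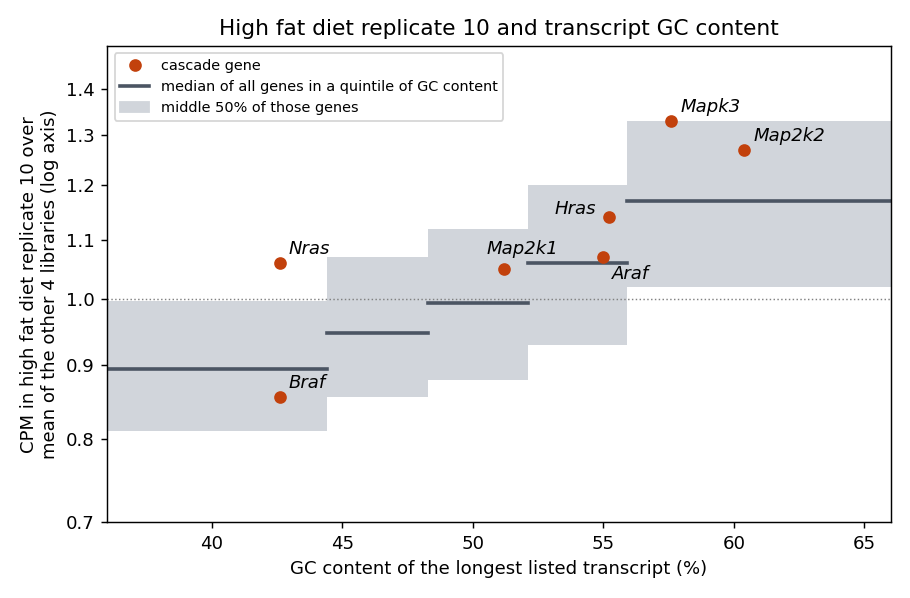
CPM in high fat diet replicate 10 over the mean of the other 4 libraries, on a log axis, against transcript GC content for the 7 genes; grey lines and boxes give the median and the middle 50% of all tested genes in each quintile of GC content, cut at the edges of the axis. Mapk3 (1.33) and Map2k2 (1.27) lie in the upper part of the quintile of highest GC content, and Braf (0.855) below the median of the lowest.

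Within each family, the deposited FPKM gave the same order of paralogs in every library. Nras stood above Hras, with an Nras to Hras ratio of 2.03, 1.97 and 1.72 in high fat diet replicates 2, 9 and 10, against 1.90 and 1.52 in chow replicates 2 and 8. Map2k2 stood below Map2k1, with a Map2k2 to Map2k1 ratio of 0.512, 0.476 and 0.632 in the high fat diet libraries, against 0.535 and 0.576 in the chow libraries. Both orders held when the counts were divided instead by the merged length of all annotated exons, where the Nras to Hras ratio ran from 2.27 to 3.06 and the Map2k2 to Map2k1 ratio from 0.287 to 0.381.

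The order of the RAF pair depended on the length used. The Araf to Braf ratio of FPKM was 1.45, 1.25 and 1.66 in high fat diet replicates 2, 9 and 10, against 1.40 and 1.36 in chow replicates 2 and 8. With the longest listed transcript (9728 bases for Braf and 2358 for Araf) it was 1.07 to 1.42, and with merged exons (13862 and 6541 bases) it was 0.548 to 0.729, so that Braf was the higher. Which of these RAF genes had more transcripts per gland is therefore not settled by these values. In counts, which are not corrected for length, Braf had 6637 to 8882 and Araf 1817 to 2500 per library.

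The paralog ratios overlapped between the diets. The log2 ratio of Araf to Braf was 0.53 ± 0.21 on the high fat diet (SD, n = 3) and 0.47 ± 0.028 on chow (SD, n = 2), a difference of 0.060, or -0.042 without high fat diet replicate 10. For Nras to Hras it was 0.93 ± 0.13 on the high fat diet and 0.76 ± 0.23 on chow, a difference of 0.16, or 0.0023 without chow replicate 8. For Map2k2 to Map2k1 it was -0.90 ± 0.21 on the high fat diet and -0.85 ± 0.075 on chow, a difference of -0.052, or -0.17 without high fat diet replicate 10 and 0.034 without high fat diet replicate 9. Two-sided exact permutation tests gave p = 0.8, 0.4 and 0.8 for the 3 pairs, or 0.8 for each after Benjamini-Hochberg adjustment, in a design whose smallest possible p is 0.2. Each difference was smaller than the larger of its 2 group SDs.

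**Figure D5:**
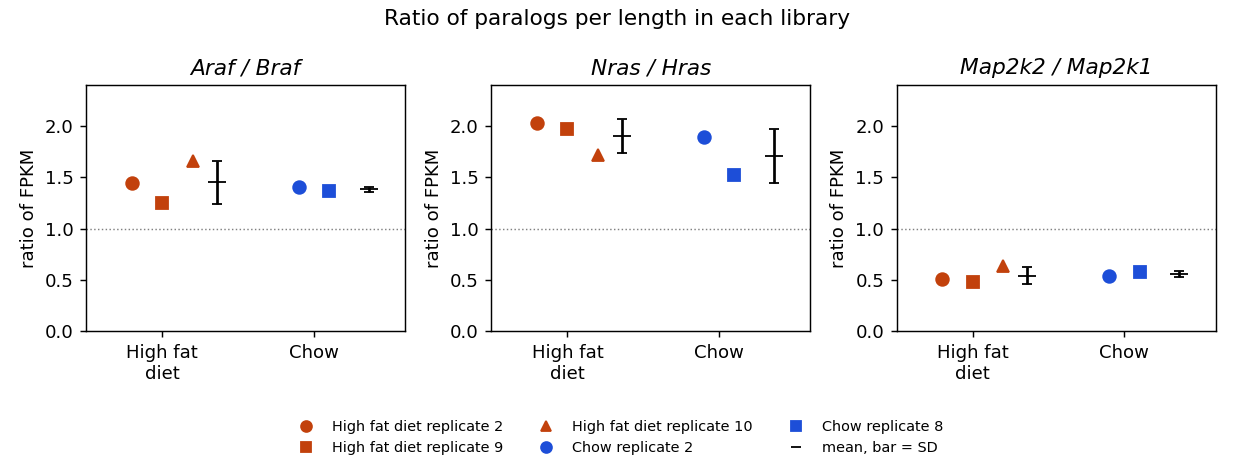
Ratio of deposited FPKM between paralogs in each library, with the group mean and its SD; the dotted line marks equal levels. Araf lies above Braf and Nras above Hras in all 5 libraries on this scale, Map2k2 lies below Map2k1, and the diets overlap in each pair.

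The RAS-related genes Mras, Rras and Rras2, relatives of Hras and Nras, had log2 fold changes of -0.15, -0.017 and -0.035, and none passed in edgeR (adjusted p = 0.996 each). Without high fat diet replicate 10 they had -0.30, -0.069 and -0.053. Mras had 17.2, 16.0 and 22.3 CPM in high fat diet replicates 2, 9 and 10, against 20.6 and 20.4 CPM in chow replicates 2 and 8, so that replicate 10 was again the highest library. By FPKM, Map2k1 made up 61.3% to 67.8% of the sum of the MEK genes over the 5 libraries.

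Of the wider pathway, 92 genes in 8 lists were tested, and 0 of the 92 passed in either direction in edgeR (0% of all tested genes), DESeq2 (0.59%) or limma-voom (0%). Unadjusted p-values under 0.05 in edgeR numbered 3 higher and 2 lower, against 2.95% and 2.47% of all genes. Their median log2 fold change was 0.0052, with 47 above 0 and 45 below, or -0.0073 with 44 above and 48 below without high fat diet replicate 10. Among 14 adaptors and exchange factors that load RAS with GTP, the median was 0.0030, or -0.019 without high fat diet replicate 10: the adaptor Shc1 had 0.49, the exchange factor Sos1 -0.17 and Rasgrp2 -0.55 (-0.36 without that library). Among 13 inhibitors of RAS and RAF, 10 were above 0, with a median of 0.11. Without high fat diet replicate 10, 9 were above 0 and the median was 0.086. Spred3 and Spred1, of a family that recruits the GTPase-activating protein neurofibromin, had 0.74 and 0.20 (0.53 and 0.30 without that library). Spred3 was low, at 1.56 to 5.22 CPM, and its diet groups overlapped. Dab2ip, itself a GTPase-activating protein, had 0.21 (0.12 without high fat diet replicate 10). Shc1 was highest in high fat diet replicate 10, at 234 CPM, with 142 and 138 CPM in the other high fat diet libraries, against 113 and 131 CPM on chow, and its log2 fold change was 0.19 without that library.

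Among 14 scaffolds, chaperones and phosphatase subunits of RAF the median was 0.0063, or 0.022 without high fat diet replicate 10, where the scaffold Cnksr3 had 0.30, the chaperone Hsp90aa1 0.26 and the late endosomal adaptor Lamtor3 -0.11. The 8 genes for lipid modification, delivery or turnover of RAS had a median of -0.049. The CAAX protease Rce1 had 0.22 (0.076 without high fat diet replicate 10) and the delivery factor Pde6d 0.22. The palmitoyltransferase Zdhhc9 had -0.14 (-0.24 without that library). The 13 kinases of the parallel JNK, p38 and ERK5 cascades had 11 members below 0 and a median of -0.044, or -0.11 without high fat diet replicate 10. In that list the JNK kinase Map2k7 had -0.43 and the JNK genes Mapk10 and Mapk9 had -0.29 and -0.13. Of the 13, 3 had every high fat diet library below both chow libraries, where 10.3% of all genes did, and 0 had every one above, where 10.6% did. None of the 13 passed in edgeR.

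Downstream, 11 kinases and transcription factors that act after ERK had a median of 0.029, or -0.068 without high fat diet replicate 10. Among them were the kinases Rps6ka4 at 0.33 and Rps6ka5 at -0.35 (-0.22 without that library) and the transcription factor Srf at 0.28. The 13 genes induced by ERK signalling had a median of 0.25, with 11 above 0, and high fat diet replicate 10 was the highest library for 9 of the 13. Without that library the median was 0.15, with 8 above 0 and 5 below. With all libraries, 6 of the 13 had every high fat diet value above both chow values and 2 had every one below, where 10.6% and 10.3% of all tested genes did. Dusp6, the phosphatase that dephosphorylates ERK, had 185, 159 and 194 CPM in the high fat diet libraries, against 146 and 141 CPM in the chow libraries. All 3 lay above both chow values, and its log2 fold change of 0.33 ± 0.12 (SE) did not pass (edgeR adjusted p = 0.839). Etv4, an ETS transcription factor, had 0.50, or 0.31 without high fat diet replicate 10, and Spry1, an inhibitor of receptor signalling, had -0.28.

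The genes whose pattern over the 5 libraries was most like that of Braf, by the root mean square difference of log2 CPM centred on each gene's own mean, were Rpap2, an RNA polymerase II associated protein, at 0.014, Ndufv2, a subunit of respiratory complex I, at 0.016, and Ogt, the O-GlcNAc transferase, at 0.017. Ogt had 461, 501 and 408 CPM in high fat diet replicates 2, 9 and 10, against 462 and 447 CPM in chow replicates 2 and 8, and like Braf it was highest in replicate 9 and lowest in replicate 10. Within the cascade the closest pair was Araf and Map2k1 at 0.045, and Hras was closest to Mapk3 at 0.099.

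The 7 genes lie on 6 chromosomes of mm10, and Hras and Mapk3 share chromosome 7. Braf spans chromosome 6 from 39603237 to 39725463 on the minus strand, and its 3′ end overlaps Ndufb2 on the other strand over 146 bases. The processed pseudogene Fth-ps2 lies within Braf on the same strand, over 516 bases. Map2k1 spans chromosome 9 from 64185770 to 64253631 on the minus strand and contains Uchl4 on the other strand, among other annotated genes. Araf on chromosome X overlaps Syn1 over 9 bases and holds small noncoding genes on the other strand. Hras, Nras, Map2k2 and Mapk3 overlap no annotated gene. Of these, Nras spans chromosome 3 from 103058285 to 103067914 and Mapk3 spans chromosome 7 from 126759601 to 126765819, both on the plus strand. Since the sources used here do not say whether counting used strand, reads of the overlapping stretches of Braf, Map2k1 and Araf are uncertain.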

How the data were processed

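Total RNA of mouse thyroid was made into stranded libraries, per the labels' protocols. The submitters' processing notes name HISAT2, StringTie, DESeq2 and mm10, without versions or roles. The authors deposited whole-number read counts and FPKM per gene. Every listed gene has at least 1 read in each library used. A second deposited table holds normalized log2 values, signed folds (negative where chow is lower) and p-values of chow over high fat diet. Its 3 further count columns match none of the samples and were left out.

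Columns were matched to samples by diet and number. The deposited counts of all genes went into edgeR 4.0.16 (R 4.3.3): filterByExpr, which removed 648 genes, TMM factors and a robust quasi-likelihood fit on diet. P-values were adjusted over the remaining 15765 at a threshold of 0.05. The scripts were tested on simulated counts. Alternatives were RLE or upper-quartile factors, a stricter filter or none, DESeq2 1.42.0, limma-voom (limma 3.58.1), no robust shrinkage, and leaving out each library. Paralog ratios used deposited FPKM, with other lengths and log2(FPKM + 1) as alternatives. No 2 libraries were copies of each other.

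The named genes were the 7, genes of the same families, the 3 of smallest p in each pathway list and the 3 most like Braf. The members and lists were chosen with earlier results of these data known. Values of some genes under this rule are not reported here. Gene positions, lengths and transcripts come from GENCODE M21, which matched 98.5% of the listed genes.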

Additional observations from a re-analysis of the deposited data

How the results depend on the processing

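Of the 7 genes, 0 were called under each of the 12 alternatives. Over all genes 0 were called with all libraries in edgeR, against 93 in DESeq2, where 0 of the 7 were among them; leaving out 1 library gave 0 to 5. The count of the 7 genes without overlap between diets was 1 with upper-quartile factors. In that setting 10.8% of all tested genes lay wholly above on the high fat diet and 10.2% wholly below. The count was 2 to 4 of the 7 when 1 library was left out. There the shares of all tested genes were 17.7% to 25.1% wholly above and 16.6% to 23.4% wholly below. Log2 fold changes whose sign turned when 1 library was left out ran from -0.075 to 0.073 for Braf, from -0.022 to 0.15 for Nras, from -0.052 to 0.19 for Map2k2 and from -0.11 to 0.16 for Mapk3; the cause was not tested. Araf, Map2k1 and Hras kept their sign under the same 12 alternatives. The differences of the log2 paralog ratios between diets moved by less than the SD pooled within the diets under each alternative length, with 1 added to FPKM, and with 1 library left out. Leaving out 1 library gave -0.042 to 0.17 for Araf to Braf, whose sign turned without high fat diet replicate 10, 0.0023 to 0.32 for Nras to Hras, and -0.17 to 0.034 for Map2k2 to Map2k1, whose sign turned without high fat diet replicate 9 or chow replicate 8; the cause was not tested. The length of the longest listed transcript was chosen after seeing the data. No paired analysis was possible because the diets share a single replicate number. With 3 libraries against 2, differences within the intervals given were not detectable, which does not show that the diets were alike.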
